A study of Mus musculus with 8 samples.

Results

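RMER elements are long terminal repeats (LTRs) of rodent endogenous retroviruses of the ERVK family, and this account covers their chromatin accessibility in cultured mouse lung fibroblasts. Members were all regions of the deposited table annotated as class LTR, family ERVK and a subfamily name that starts with RMER. This rule found 72885 copies in 46 subfamilies, of 300845 ERVK copies, 2968871 retrotransposon copies and 4835895 regions in all. A further 47552 copies with an RMER name in other families were left out. No measured value entered the rule.

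An endogenous retrovirus carries a copy of its LTR at each end of an internal coding part, and recombination between the LTRs often leaves a single LTR behind. An LTR holds the promoter and enhancer sequence of the virus, so an old LTR can still bind transcription factors of the host cell, while the host silences many ERVK copies with DNA methylation and histone H3 lysine 9 methylation. Subfamily names that end in -int mark the internal part, and the other names mark LTRs.

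The study asked how loss of cGAS, the enzyme that senses DNA outside the nucleus and starts the interferon response, affects open chromatin. Accessibility was measured by ATAC-seq, in which a transposase cuts DNA that is not packed away, in primary lung fibroblasts of 4 cGAS knockout (KO) and 4 wild-type (WT) mice, with 2 libraries labelled female and 2 labelled male per genotype. All cultures were kept at 5% CO2 and 5% O2 in a medium with 15% FBS, and no treatment was named. The labels do not give the strain, litter, age or knockout allele, and p-values here measure only the spread between these 8 libraries. Libraries are called KO F1 to KO M2 and WT F1 to WT M2 by genotype, sex label and number. Fibroblast markers and the Cgas locus were not analysed here.

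The libraries held 43.2 to 72.9 M counts, of which 0.460 to 0.578 M lay in RMER copies. The share of all counts in open chromatin regions (OCRs, the peaks of the table) ran from 64.6% in KO M2 and 65.1% in WT F1 to 75.8% in KO M1 and 76.4% in WT M1. The library labelled KO F2 went against its sex label. RMER copies on the Y chromosome held 0.262% of its RMER counts, against 0.267% to 0.488% in the 4 libraries labelled male and 0.0102% to 0.0117% in the 3 other libraries labelled female. RMER copies on X held 3.77% of the RMER counts of KO F2, 3.07% to 3.75% of those of the male-labelled libraries and 4.75% to 5.38% of those of the other female-labelled ones. The edgeR tests that use the sex label were also run without KO F2. DESeq2 and limma voom also used the sex label but were run with all 8 libraries only.

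RMER copies were short pieces of LTR with few counts each. Their median length was 430 bp (quartiles 186 and 676, longest 5773), against 284 bp in the other 227960 ERVK copies. They covered 34.4 Mb, and 25.03% of them were split into several annotated segments. A copy held 4 counts per library at the median and 7.39 on average, and 920 copies had none in any library. The 1% of copies with the highest counts held 16.7% of all RMER counts, and the top 10% held 46.9%.

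RMER copies had more counts per length than the rest of the ERVK family. Counts per kb of annotated sequence, scaled to library size (CPM per kb), were 0.258 ± 0.0188 (SD, n = 8 libraries) over RMER and 0.184 ± 0.0270 over other ERVK. The ratio was 1.36 in KO F1, 1.39 in KO F2, 1.55 in KO M1 and 1.25 in KO M2. It was 1.34 in WT F1, 1.44 in WT F2, 1.55 in WT M1 and 1.44 in WT M2. RMER was thus higher in 8 of 8 libraries, by 1.41-fold on average (exact two-sided sign-flip test, p = 0.00781, the smallest it can give). Among copies that touch no OCR the ratio was 1.30 (1.18 to 1.42, 8 of 8 libraries). Taken as the median over copies rather than pooled over bases, it was 1.19 (1.11 to 1.34, 8 of 8 libraries). LTR and internal sequence were not matched between RMER and other ERVK. Against all other LTR copies, which include the ERVL, ERV1 and MaLR families, the ratio was close to 1, at 1.02-fold (0.991 to 1.04, higher in 6 of 8 libraries, exact p = 0.0469).

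The gap to other ERVK was seen in most length classes. In copies under 200 bp RMER held 13.6 counts per kb and other ERVK 13.5, summed over copies and averaged over libraries. At 600 to 800 bp the values were 16.6 and 13.9, and at 800 to 1000 bp they were 17.0 and 9.74. The overlap with OCRs was also larger than in other ERVK. OCRs covered 2.43% of RMER bases, 1.09% of other ERVK bases and 2.28% of the bases of other LTR copies, and 3297 RMER copies (4.52%) touched an OCR.

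LTR subfamilies stood above internal ones. Summed over the 41 LTR subfamilies the level was 0.274 ± 0.0188 CPM per kb (SD, n = 8), and over the 5 internal ones 0.138 ± 0.0209. The LTR level was higher in 8 of 8 libraries, from 1.75-fold in WT F1 to 2.36-fold in WT M1.

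**Figure D1:**
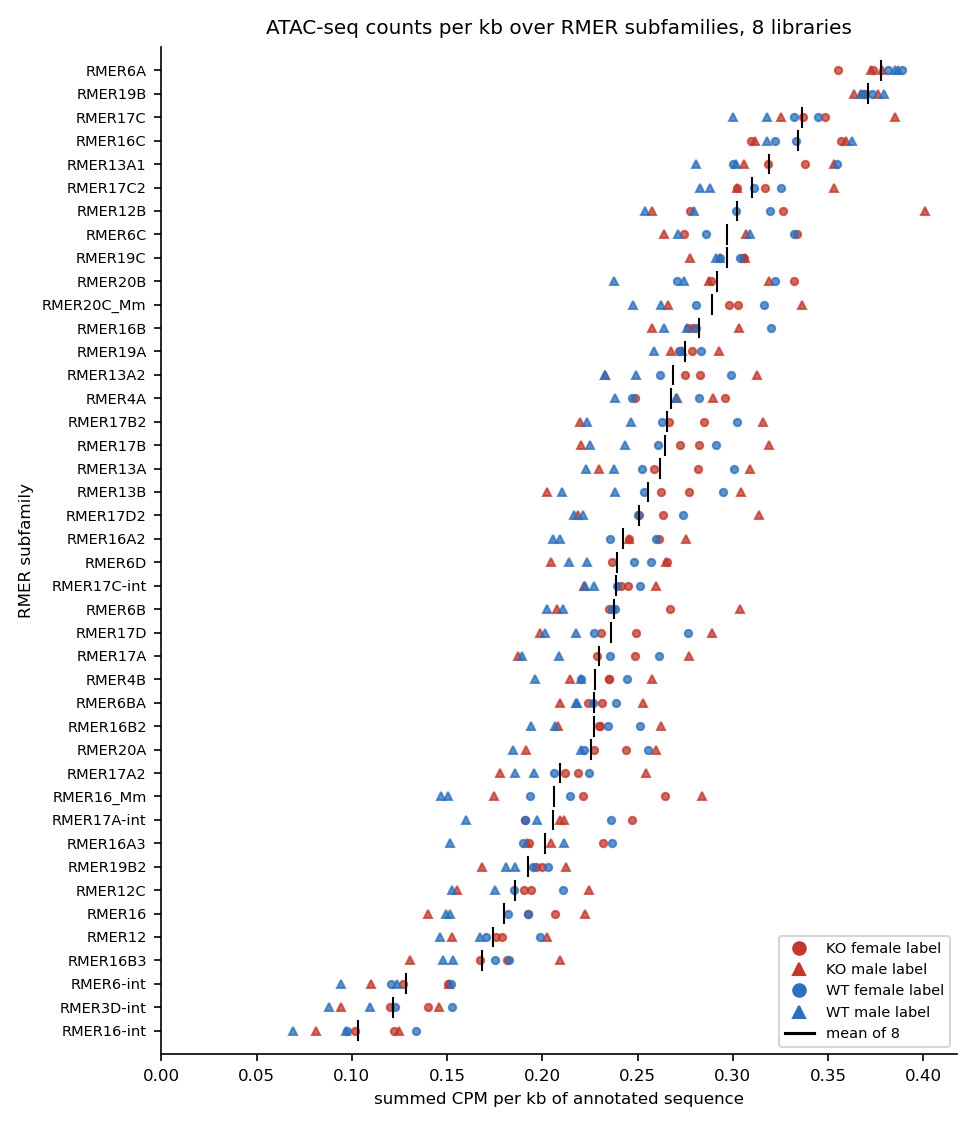
Summed CPM per kb (x axis) of the 42 RMER subfamilies that held 100 or more counts per library on average (y axis), with a point per library and a bar at the mean of 8. RMER6A and RMER19B lie highest with narrow spreads, and 3 internal subfamilies lie lowest.

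RMER6A and RMER19B had the highest levels per length. RMER6A reached 0.378 ± 0.0109 CPM per kb (SD, n = 8; 0.355 to 0.389) and RMER19B 0.371 ± 0.00523 (0.363 to 0.379). The third, RMER17C, had 0.336 ± 0.0251 (0.300 to 0.385). These 3 ranges overlapped, and the order of the 3 within each library was not tested. The 3 lowest were internal sequences, RMER16-int at 0.103 ± 0.0223 (0.0689 to 0.134), RMER3D-int at 0.122 ± 0.0236 (0.0878 to 0.153) and RMER6-int at 0.129 ± 0.0213 (0.0941 to 0.152). Their ranges overlapped each other and lay below every library's value of RMER6A, RMER19B and RMER17C.

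By group of names, the lowest levels were those of groups with many bases of internal sequence. The RMER19 group had 0.311 CPM per kb, with RMER19C at 0.297, RMER19A at 0.275 and RMER19B2 at 0.193. The RMER6 group had 0.300, with RMER6C at 0.297, RMER6D at 0.239, RMER6B at 0.238 and RMER6BA at 0.227. The RMER20 group had 0.271, with RMER20B at 0.292, RMER20C_Mm at 0.289 and RMER20A at 0.226. The members of a group of names thus spread over ranges that overlap those of other groups. In the RMER13 group, also at 0.271, the values were 0.319 for RMER13A1, 0.268 for RMER13A2, 0.262 for RMER13A and 0.255 for RMER13B. The RMER17 group, with 18620 copies the most numerous, had 0.266. Its members were RMER17C2 at 0.310, RMER17B2 at 0.265, RMER17B at 0.264, RMER17D2 at 0.251, RMER17C-int at 0.238, RMER17D at 0.236, RMER17A at 0.229, RMER17A2 at 0.209 and RMER17A-int at 0.205, beside RMER17C. Here the internal parts lay close to the LTRs. The RMER4 group had 0.241, with RMER4A at 0.268 and RMER4B at 0.228, and the RMER12 group 0.198, with RMER12B at 0.302, RMER12C at 0.186 and RMER12 at 0.174. The RMER16 group had 0.138, and 0.218 over its LTRs alone, which ran from RMER16C at 0.334 through RMER16B at 0.282, RMER16A2 at 0.242, RMER16B2 at 0.227, RMER16_Mm at 0.206, RMER16A3 at 0.201 and RMER16 at 0.180 to RMER16B3 at 0.168. RMER3D1, RMER3D2, RMER3D3 and RMER3D4 had 2 to 4 copies and a mean of 2.75 to 4.75 counts each, too few for a level, and were not tested.

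Subfamilies with more sequence in OCRs tended to vary less between libraries. The coefficient of variation of the level over the 8 libraries was 1.41% for RMER19B, 2.88% for RMER6A and 3.43% for RMER19C, and their bases lay in OCRs at 4.96%, 4.92% and 4.54%. It was 24.2% for RMER16_Mm, 21.6% for RMER16-int and 19.4% for RMER3D-int, with 1.21%, 0.222% and 0.547% of bases in OCRs. The order was not strict. RMER16A2 and RMER6C had the most bases in OCRs, at 5.84% and 5.05%, with coefficients of 10.2% and 9.17%, near the median of 11.2%. Over the 42 subfamilies, which share the same libraries, Spearman's rho between the 2 measures was -0.813. The CPM of 41 of the 42 fell as the OCR share of the library rose, with a median r of -0.909 over the 8 libraries. OCRs and retrotransposons together held nearly all counts of a library, with 76.4% and 20.4% in WT M1 and 64.6% and 30.8% in KO M2. A fall of CPM with a rising OCR share may thus in part be built into the measure, although CPM also carry a TMM factor. The r ran from 0.0204 for RMER6A to -0.984 for RMER17C-int. How far the coupling accounts for the fall was not tested. The smaller variation of subfamilies with more bases in OCRs may follow from the same coupling, which was not tested.

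OCRs that lay mainly in RMER sequence came largely from 4 subfamilies. Of the 185268 OCRs, 3245 (1.75%) touched an RMER copy, 1479 had 50% or more of their length inside RMER (called mainly RMER below) and 579 lay wholly inside. Each of the 1479 was assigned to the RMER subfamily with the most overlap. RMER19B held 305, RMER6C 207, RMER6A 181 and RMER19C 141. Together these were 56.4% of the 1479 OCRs on 23.3% of RMER bases. They had 104, 108, 101 and 104 such OCRs per Mb of their own sequence, against 43.0 per Mb over all RMER. RMER19A followed with 79.6 per Mb and RMER6D with 76.4. RMER12C, with 9258 copies the most numerous subfamily, had 8 such OCRs, or 4.50 per Mb. Its copies had a median length of 124 bp, against 817 bp in RMER19B, and a short copy can seldom hold 50% of an OCR. Of all bases of RMER12C and RMER19B, 0.819% and 4.96% lay in OCRs.

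**Figure D2:**
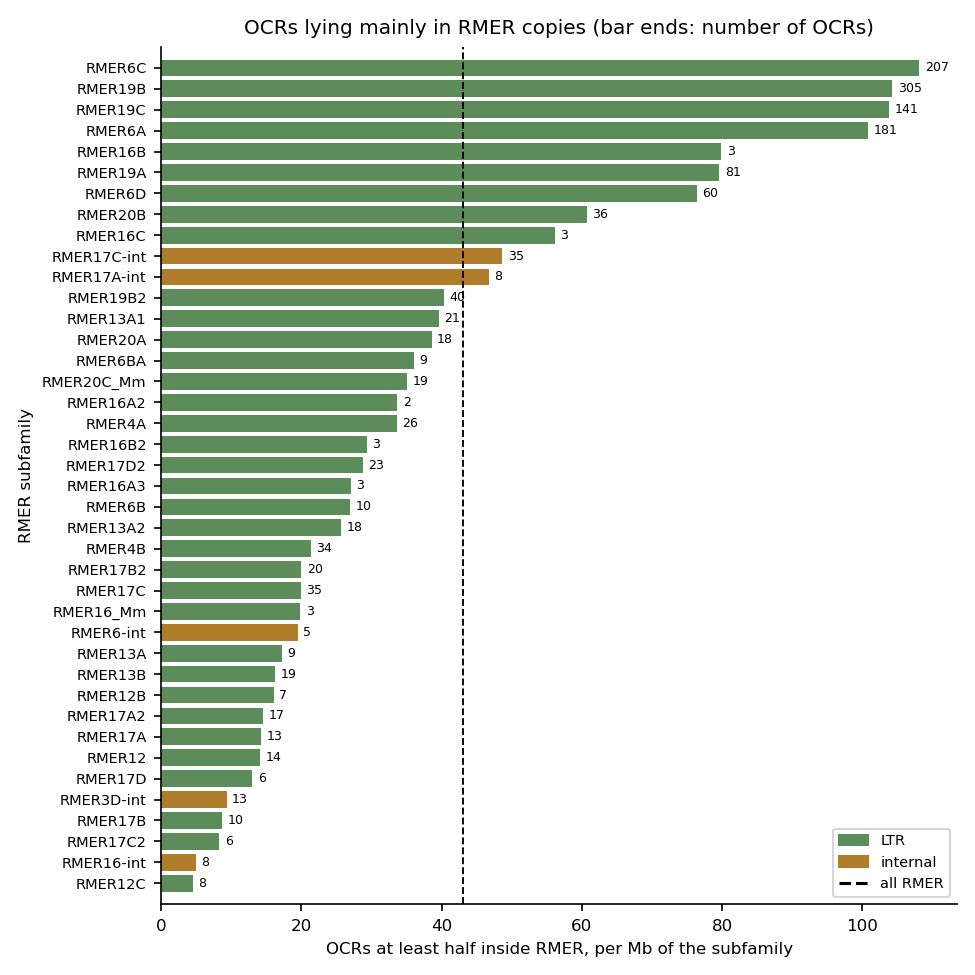
Number of mainly RMER OCRs per Mb of each subfamily's annotated sequence (x axis), for subfamilies (y axis) with at least 50 copies and such an OCR. The numbers at the bar ends are OCR counts, and RMER6C, RMER19B, RMER19C and RMER6A exceed 100 per Mb against 43.0 over all RMER (dashed line). The measure disfavours subfamilies with short copies.

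Mainly RMER OCRs were weak, and the way they were picked limits what their position in the LTR can show. The median mainly RMER OCR had 0.815 CPM (quartiles 0.492 and 1.74) and was 439 bp long, against 2.35 CPM and 519 bp for OCRs without RMER. A read end in both an OCR and a repeat copy was shared between them, which lowers both values. Positions were read in the longer copies of each subfamily. In RMER19B copies of at least 818 bp, the median centre of 154 OCRs lay at 0.414 of the copy's length from the nearer end, where 0.5 is the middle. The medians were 0.413 for 115 OCRs in RMER6C (copies of at least 570 bp), 0.384 for 55 in RMER19C (510 bp) and 0.307 for 98 in RMER6A (666 bp). The requirement of 50% overlap itself favours central positions, and no expected position was computed, so a preference for the middle is not shown. The orientation of copies is not given in the table.

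The 5 copies with the most counts all touched an OCR. An RMER6A copy at chr17:47243646-47244325 (GRCm39) had 11.2 CPM over the 8 libraries, and 89.6% of it lay in an OCR. Its values were 11.2, 10.9, 12.3 and 9.77 CPM in KO F1, F2, M1 and M2, and 9.40, 10.1, 13.8 and 12.4 CPM in WT F1, F2, M1 and M2. The groups overlapped. RMER19B copies at chr2:18477990-18478876 and chr16:3773886-3774981 had means of 8.18 and 7.63 CPM. An RMER17C-int copy at chr15:36726957-36730881 had 7.56 CPM, and an RMER6C copy at chr4:136325541-136326140 had 7.34 CPM. None of these 5 passed the test between genotypes (log2 fold changes of -0.29 to 0.13, edgeR adjusted p of 1.00 each after rounding), and the sign of 3 of them turned when single libraries were left out. The mainly RMER OCRs with the most counts were chr17:47243717-47244814 on the same RMER6A copy (20.1 CPM), chr4:136325545-136326488 on the same RMER6C copy (13.9 CPM) and chr13:21012648-21014145 on RMER17B2 (13.9 CPM).

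KO and WT libraries gave RMER copies nearly the same share of the retrotransposon counts. The share was 3.52%, 3.53%, 3.58% and 3.46% in KO F1, F2, M1 and M2. It was 3.51%, 3.56%, 3.58% and 3.52% in WT F1, F2, M1 and M2. The groups overlapped, with means of 3.52% ± 0.0497 (KO) and 3.54% ± 0.0331 (WT; SD, n = 4 each). The difference of -0.0230 percentage points was within the spread (exact two-sided permutation test over 70 assignments, p = 0.543; adjusted over the 2 shares tested, 0.743; the smallest p it allows is 0.0286). Inverting that test gave limits of -0.125 and 0.0627 points. The difference was -0.0275 points without KO F2 and -0.00153 points without KO M2.

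The share of RMER counts in copies that touch an OCR also overlapped between genotypes. It was 24.7%, 24.2%, 32.0% and 20.02% in KO F1, F2, M1 and M2. It was 21.0%, 24.8%, 30.7% and 29.8% in WT F1, F2, M1 and M2. The means were 25.2% ± 4.99 and 26.6% ± 4.56 (SD, n = 4 each; difference -1.37 points, limits -10.7 and 11.04, exact permutation p = 0.743). The sign turned without KO M2 (0.359 points) and without WT M1 (0.0136 points).

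**Figure D3:**
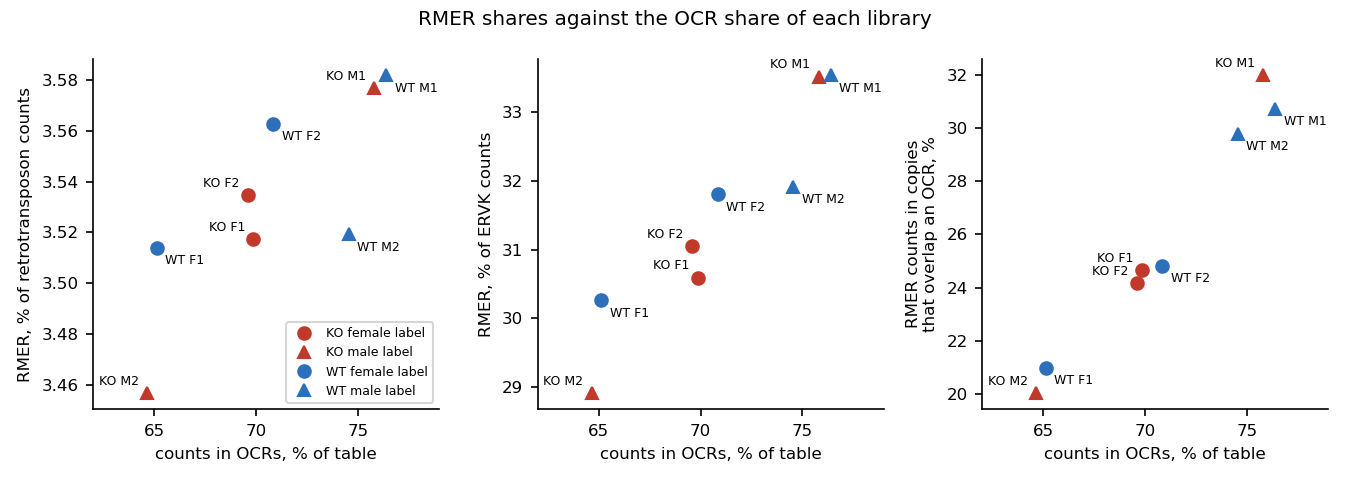
RMER share of retrotransposon counts, RMER share of ERVK counts and share of RMER counts in copies that touch an OCR (y axes, %) against the share of all counts in OCRs (x axes, %), with a point per library. KO M2 and WT F1 lie at the low end of the OCR share and KO M1 and WT M1 at the high end, and the genotypes are mixed along the axis.

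The RMER shares moved with the OCR share of the library more than with genotype. Over the 8 libraries Pearson's r between the RMER share of retrotransposon counts and the OCR share was 0.795 (exact permutation p = 0.0167, adjusted over 3 relations 0.0251) and Spearman's rho 0.881 (exact p = 0.00724, adjusted 0.0109). Without KO M2 and WT M1, the 2 libraries farthest from the median, r was 0.564, so this relation rests on them. For the RMER share of ERVK counts, from 28.9% in KO M2 to 33.5% in WT M1, r was 0.943 (exact p = 0.000769, adjusted 0.00231), rho was 0.976 (exact p = 0.000397, adjusted 0.00119), and r was 0.891 without those 2. Among copies outside OCRs the RMER share of retrotransposon counts did not follow the OCR share beyond the spread (r = 0.0144, exact p = 0.973; rho = 0.238, exact p = 0.582; r = -0.483 without those 2). The RMER share of ERVK counts was not tested outside OCRs. There the ratio of RMER to other ERVK counts per kb was 1.18 in KO M2, 1.25 in WT F1, 1.41 in KO M1 and 1.42 in WT M1. In the other libraries it was 1.24 to 1.33.

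No RMER subfamily passed the threshold between genotypes. Counts summed over copies were tested for the 42 subfamilies that averaged 100 counts or more, and 0 of 42 had an edgeR adjusted p under 0.05, as did 0% of all 831 retrotransposon subfamilies. DESeq2 and limma voom called 0 of 42 as well. At an unadjusted p under 0.05 edgeR listed 1 of 42, against 1.81% of all 831, and the 2 groups did not overlap in 1 of 42, against 1.32% of all.

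RMER16_Mm, an LTR subfamily of 360 copies, had the lowest p. Its summed CPM was 33.5, 40.0, 26.4 and 42.9 in KO F1, F2, M1 and M2. It was 32.5, 29.3, 22.2 and 22.8 in WT F1, F2, M1 and M2. KO M1 lay below 2 WT libraries, so the groups overlapped. The log2 fold change was 0.43 ± 0.17 (SE; edgeR adjusted p = 0.875), and it stayed above 0 without any single library (0.24 to 0.53). The next with higher KO values were RMER16A2 (0.18 ± 0.09, adjusted p 0.875) and RMER20B (0.15 ± 0.09, adjusted p 0.875).

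RMER6A was the subfamily whose groups did not overlap. Its summed CPM was 638, 671, 669 and 680 in KO F1, F2, M1 and M2. It was 698, 685, 691 and 694 in WT F1, F2, M1 and M2. All 4 KO values lay below all 4 WT values, by -0.06 ± 0.05 on the log2 scale (edgeR adjusted p = 0.875). The sign turned with scaling factors from OCRs alone (0.0042) and in copies outside OCRs (0.01). RMER16B (-0.03 ± 0.08) and RMER6C (-0.02 ± 0.10) were the next with lower KO values, and both changed sign when single libraries were left out. The largest subfamily by counts, RMER19B, had means of 1080 ± 15.7 CPM (KO) and 1089 ± 15.7 CPM (WT; SD, 4 libraries each).

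**Figure D4:**
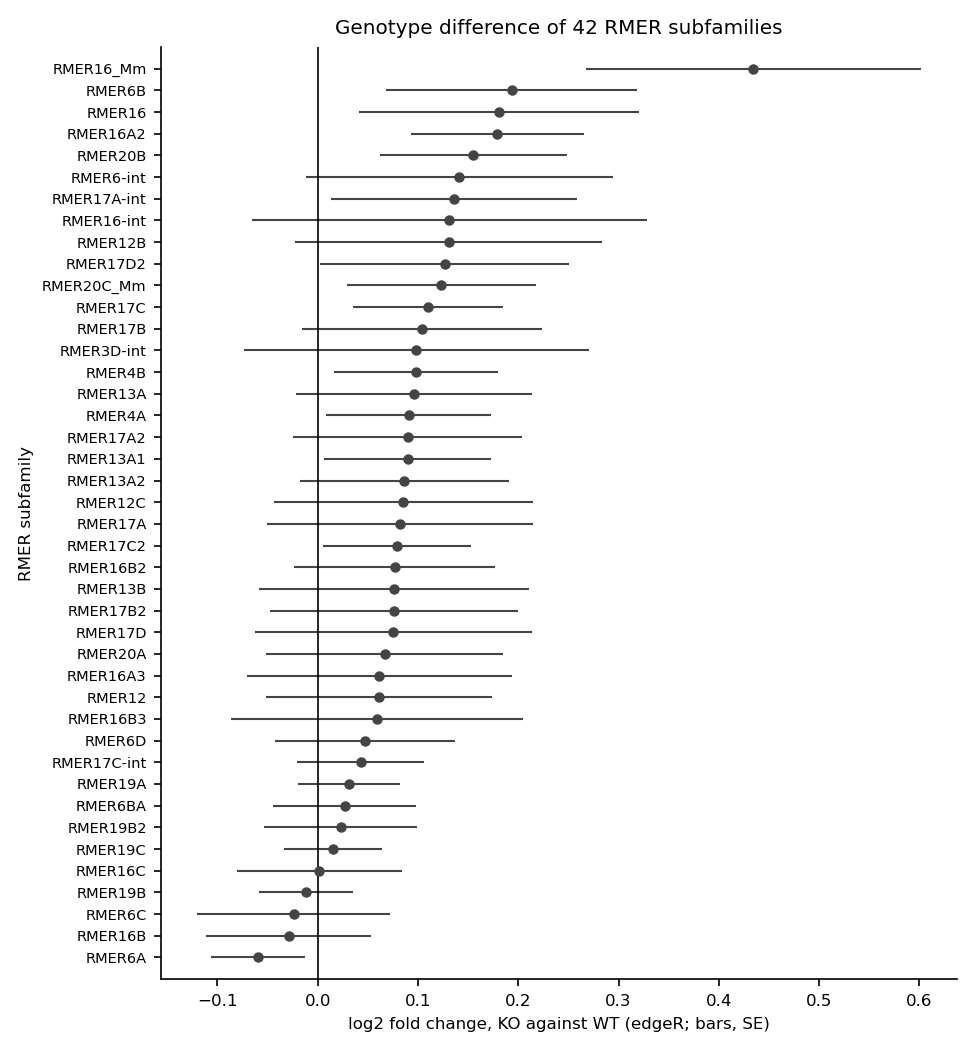
log2 fold change of KO against WT with its SE (x axis, edgeR) for the 42 RMER subfamilies tested (y axis). RMER16_Mm lies farthest to the right at 0.43 with a wide error, RMER6A farthest to the left at -0.06, and no adjusted p is under 0.05.

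Most fold changes were small and positive, but their side depended on scaling and on KO M2. With the scaling used here 38 of 42 lay above 0, with a median of 0.08, against 75.1% of all 831 subfamilies and a median of 0.06. With factors from OCRs alone 42 of 42 lay above 0 (median 0.16), with factors from retrotransposon subfamilies alone 33 (0.04), in DESeq2 31 (0.03) and in limma voom with sample weights 20 (-0.0017). Without KO M2, the library with the lowest OCR share, 14 of 42 lay above 0 (median -0.03). The direction of RMER as a whole is therefore not given.

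The genotype difference was not shown to depend on the sex label. The interaction term gave 0 of 42 RMER subfamilies with an adjusted p under 0.05 and 0 at an unadjusted p under 0.05, and 0% of all 831 passed after adjustment. Without KO F2 the interaction again gave 0 of 42 after adjustment and 0 of 42 at an unadjusted p under 0.05. Without KO M1, 23 of 42 had an unadjusted p under 0.05, against 25.2% of all subfamilies, and 0 passed after adjustment. Between male and female labels 0 of 42 passed, as did 0% of all, and 0 of 42 had an unadjusted p under 0.05, against 1.68% of all. That count stayed at 0 of 42 without KO F2. Without KO M2, 20 of 42 were lower in male-labelled libraries at an edgeR adjusted p under 0.05, against 24.1% of all subfamilies. The remaining male-labelled libraries then had OCR shares of 74.5% to 76.4% and the female-labelled ones 65.1% to 70.8%, so sex label and OCR share cannot be told apart there.

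Single RMER copies were tested where they had enough counts. The filter on low counts kept 25026 of the 72885 copies (34.3%), with a median of 10.5 counts per library, and 47859 were not tested. The tested share ran from 65.8% in RMER13B and 65.4% in RMER19B down to 6.62% in RMER12C and 5.17% in RMER16A3. None of the 25026 had an edgeR adjusted p under 0.05, as was the case for 0% of 570571 retrotransposon copies. An unadjusted p under 0.05 was found for 996 (3.98%), against 3.54% of all, with 692 higher and 304 lower in KO. Over all copies tested, 14743 were higher and 5457 lower at that p, so the lean to KO was not particular to RMER. The groups did not overlap in 691 (2.76%), against 2.54% of all. DESeq2 gave 3 RMER copies an adjusted p under 0.05 among 1649 it adjusted (0.182%), against 0.0829% of all copies it adjusted. Those 3 belonged to RMER19B, RMER4B and RMER6B, and all were higher in KO, as were 41 of the 42 that DESeq2 called among all copies.

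The RMER19B copy at chr5:34095555-34096415 was one of them and touches no OCR. Its level was 1.54, 1.91, 1.32 and 2.11 CPM in KO F1, F2, M1 and M2, and 0.572, 0.636, 0.632 and 0.495 CPM in WT F1, F2, M1 and M2. Every KO value was above every WT value, for a log2 fold change of 1.55 ± 0.30 (SE; edgeR adjusted p = 0.848, DESeq2 adjusted p = 0.00815). It rested on a mean of 68.5 counts per library. The copy with the lowest edgeR p, an RMER6B copy at chr1:91163124-91163595, had 0.609 to 1.14 CPM in KO and 0.155 to 0.249 in WT (log2 2.04 ± 0.38, adjusted p = 0.848) on 30.4 counts. The other copies of lowest p with higher KO values were an RMER19C copy at chr12:39056537-39057098 (log2 2.00) and an RMER17C copy at chr5:140800021-140800427 (1.79).

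Copies with lower KO values gave weaker p-values. An RMER19B copy at chr2:24965246-24966815 had 0.645 to 1.41 CPM in KO and 1.60 to 4.10 CPM in WT (log2 -1.17 ± 0.31, edgeR adjusted p = 0.926). An RMER17B2 copy at chr11:83569821-83570815 had 0.591 to 0.869 CPM in KO and 1.20 to 1.92 CPM in WT (log2 -1.10 ± 0.29, edgeR adjusted p = 0.948), and 52.9% of it lay in an OCR. An RMER19A copy at chr17:63718934-63719593 (log2 -1.42) and an RMER6A copy at chr2:28273779-28274518 (-1.92, on 9.88 counts) completed the 4. These 8 copies kept their direction without any single library, which was almost fixed in advance because their groups did not overlap.

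OCRs that touch RMER were tested with all OCRs, and none of the 3245 had an edgeR adjusted p under 0.05, as was the case for 0% of 185268. An unadjusted p under 0.05 was found for 294 (9.06%, 182 higher and 112 lower in KO), against 9.88% of all OCRs (11903 higher and 6393 lower). The groups did not overlap in 182 (5.61%, 90 higher and 92 lower), against 5.98% of all (6436 higher and 4647 lower). DESeq2 called 36 of the 2996 RMER OCRs it adjusted (1.20%, 29 higher and 7 lower in KO). Among all OCRs it called 1.46% (2243 higher and 403 lower). In a fit with replicate numbers as a block and the male numbers crossed, added after seeing the data, 161 of 3245 were called, against 6.21% of all OCRs. These RMER shares lay slightly below those of all OCRs, but they are overlapping cuts of the same counts. OCRs that touch RMER were also weaker, with a median of 1.42 CPM against 2.35 CPM without RMER. No difference between RMER and other OCRs is read from these shares, and none was tested.

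The edgeR genotype tests, which carry the sex label as a term, called no RMER feature without KO F2 either. None of the 42 subfamilies, 25026 copies or 3245 OCRs had an edgeR adjusted p under 0.05. At an unadjusted p under 0.05 there were 0 subfamilies, against 1.2% of all, 1094 copies (4.37%), against 4.05% of all, and 355 OCRs (10.9%), against 12.1% of all.

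**Figure D5:**
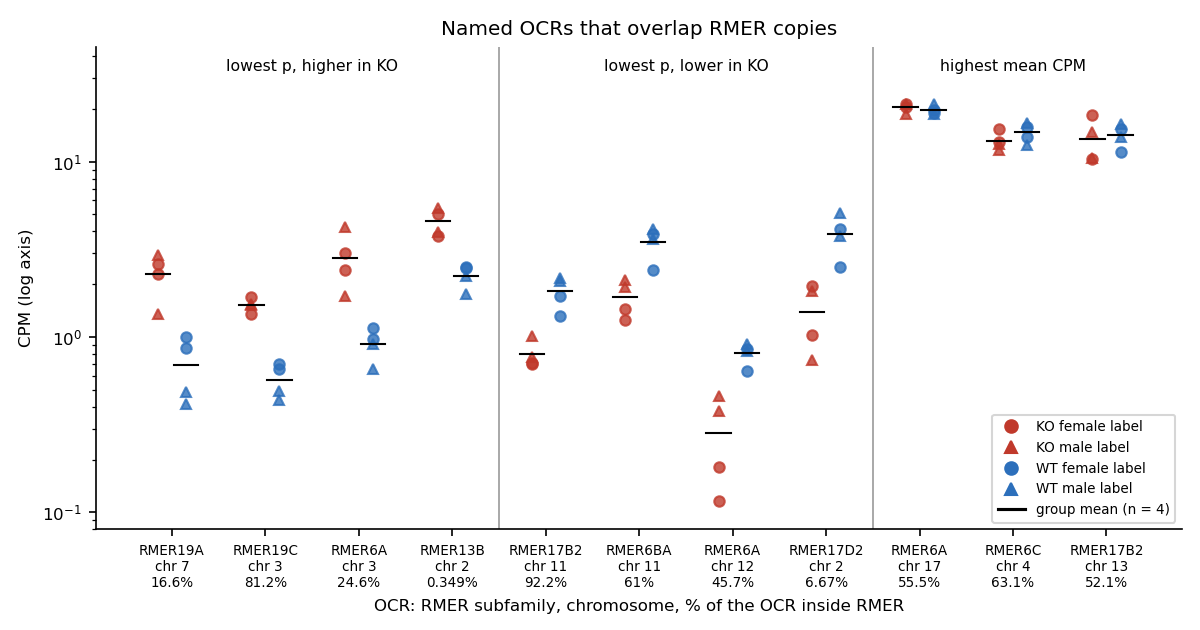
CPM on a log axis (y axis) of the 11 named OCRs that touch RMER (x axis), with a point per library, colour for genotype, shape for sex label and a bar at each group mean. In the 8 OCRs of lowest p the KO and WT points do not overlap, by the way they were picked, and in the 3 with the highest CPM they do.

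The OCR at chr3:131756644-131757227, 81.2% of it inside an RMER19C copy, had tight groups. Its level was 1.70, 1.36, 1.54 and 1.52 CPM in KO F1, F2, M1 and M2, and 0.657, 0.700, 0.436 and 0.490 CPM in WT F1, F2, M1 and M2. The 4 KO values lay above the 4 WT values, for a log2 fold change of 1.41 ± 0.28 (SE; edgeR adjusted p = 0.323, DESeq2 adjusted p = 0.00687). The OCR at chr7:44403325-44403667 had the lowest p, at 1.34 to 2.92 CPM in KO and 0.414 to 1.00 CPM in WT (log2 1.80 ± 0.33, edgeR adjusted p = 0.323, DESeq2 adjusted p = 0.00244), but 16.6% of it was RMER19A sequence. At chr3:37193318-37193712 (RMER6A, 24.6% of the OCR, log2 1.63) and chr2:14249194-14250053 (RMER13B, 0.349%, log2 1.03) most of the OCR also lay outside RMER. DESeq2 gave these an adjusted p of 0.00545 and 0.00746.

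Among OCRs lower in KO, that at chr11:83570228-83570764 lay 92.2% inside the RMER17B2 copy named above. Its level was 0.711, 0.702, 1.01 and 0.771 CPM in KO F1, F2, M1 and M2, and 1.71, 1.32, 2.18 and 2.10 CPM in WT F1, F2, M1 and M2. All KO values lay below all WT values, for a log2 fold change of -1.17 ± 0.25 (SE; edgeR adjusted p = 0.323, DESeq2 adjusted p = 0.0120). The OCR at chr11:88857611-88858172 was 61.0% RMER6BA and had 1.25 to 2.13 CPM in KO and 2.42 to 4.10 CPM in WT (log2 -1.06 ± 0.23, edgeR adjusted p = 0.323, DESeq2 adjusted p = 0.00904). The other pair were chr12:71204681-71205295 (RMER6A, 45.7%, log2 -1.60) and chr2:7264651-7265609 (RMER17D2, 6.67%, log2 -1.46). DESeq2 gave this pair an adjusted p of 0.0507 and 0.0151. All 8 kept their direction without any single library, which was almost fixed in advance because their groups did not overlap.

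The median fold changes of mainly RMER OCRs lay on either side of 0 by subfamily, most of them close to it. Over all 1479 the median log2 fold change was 0.0012 and 742 lay above 0. For the 181 in RMER6A the median was -0.16 and 56 lay above 0, and the median ran from -0.22 to -0.11 over the fits without single libraries. For the 36 in RMER20B the median was 0.41 with 30 above 0 (0.14 to 0.64). Among subfamilies with 30 or more such OCRs, RMER6A had the lowest median and RMER20B the highest. RMER20B is named here after its value was seen. For the 305 in RMER19B the median was -0.04 with 137 above 0 (-0.06 to -0.02), and for the 207 in RMER6C -0.02 with 95 above 0 (-0.14 to 0.11). The medians of the others of that size ran from -0.02 in RMER4B to 0.11 in RMER6D. OCRs of a subfamily share libraries and sequence, so these are descriptions with no test.

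RMER16_Mm held 3 mainly RMER OCRs, and all 3 had higher KO values. They are named here after their values were seen. The OCR at chr11:29824809-29825171, wholly inside RMER16_Mm, had 0.571, 1.16, 0.516 and 1.42 CPM in KO F1, F2, M1 and M2, and 0.178, 0.267, 0.324 and 0.135 CPM in WT F1, F2, M1 and M2. The groups did not overlap, and KO F2 and KO M2 were the highest of the KO libraries (log2 2.01 ± 0.48, edgeR adjusted p = 0.323, DESeq2 adjusted p = 0.0338). The others, at chr5:31519205-31519651 and chr3:20592695-20593003, had log2 fold changes of 1.99 ± 0.56 and 1.24 ± 0.41, with edgeR adjusted p of 0.323 and 0.340. DESeq2 called neither of these. Of the 360 RMER16_Mm copies, 86 were tested. Of these, 20 had an unadjusted p under 0.05, against 3.54% of all copies, and in 10 the groups did not overlap, against 2.54% of all. All 10 were higher in KO. The subfamily is set out here for its lowest p, and the filter asked for enough counts in as few as 2 libraries. A copy could thus pass on high KO values alone, so the numbers beside all copies show no enrichment. These copies and OCRs are parts of the subfamily sum above and no separate evidence.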

How the data were processed

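The table was deposited by the authors in build GRCm39 (per the submitters' processing notes, which also list MACS2, Bowtie2, featureCounts, Picard, Trim Galore, bedtools and SAMtools). Its estimated counts cover peaks and repeats together and were made with featureCounts 2.0.3 per the file headers. Only the 5' position of a read was used there, and where it fell in more than one region the count was divided equally. The placement of reads with several equal matches is not given in the sources used here, which makes single copies of near-identical sequence uncertain. All 8 libraries came from 1 table.

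Counts were rounded and tested with edgeR 4.0.16 (R 4.3.3, quasi-likelihood, robust), with sex label and genotype as terms, TMM factors over OCRs and retrotransposon copies together (for OCRs, over OCRs), and Benjamini-Hochberg adjustment over all features tested. Copies and OCRs passed filterByExpr, grouped by genotype and sex label, and subfamilies needed a mean of 100 counts. CPM of copies and subfamilies use TMM-scaled totals of the whole table, and CPM of named OCRs use TMM-scaled totals over OCRs. Medians and quartiles of CPM over sets of OCRs use OCR totals with no TMM factor. CPM of copies and of OCRs are therefore on different scales. Shares were compared by exact permutation over libraries (scipy 1.17.1). Alternatives were DESeq2 1.42.0, limma 3.58.1, other scalings, filters and denominators, a replicate block and leaving out each library. The scripts were tested on simulated counts. Copies share OCR counts, so the levels of copies in OCRs are too low.

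Named subfamilies were the 5 with most counts, the 3 of lowest p in each direction and the 3 highest and lowest per kb. Named copies and OCRs were the 4 of lowest p in each direction, with the 5 copies of highest CPM and the 3 OCRs of highest CPM with 50% or more of their length in RMER. Members and lists were chosen with earlier results of these data known. No sequence of a member is printed, since no genome of the table's build was used here.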

Additional observations from a re-analysis of the deposited data

Results flagged for a closer look

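In 3 of the 80 groups of 4 libraries checked, a single library lay far from the other 3, by a gap test at the 95% level that flags about 1 in 20 groups by chance. The summed CPM of RMER19C was 376 in KO M1, against 415 to 416 in the other KO libraries. The RMER19A copy at chr17:63718934-63719593 had 0.360 CPM in KO F2, against 0.141 to 0.163 in the other KO libraries. The RMER6A copy at chr2:28273779-28274518 had 0.147 CPM in KO F2, against 0.0297 to 0.0471 in the others. Both KO F2 values were still below all 4 WT values, and both copies hold few counts.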

How the results depend on the processing

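These counts limit single copies most, since a median tested copy held 10.5 counts per library, and near-identical copies can exchange reads. Of the alternatives to the values that answer a comparison, 104 kept their result, 6 moved in size or number, 3 turned in sign and 2 were weaker. Many of the 104 were numbers of calls that stayed at 0, which have no direction to keep. The KO minus WT difference of the RMER share turned to 0.0489 percentage points as a share of the whole table, and ran from -0.0415 to -0.00153 over fits without single libraries. The share in OCR copies ran from -3.64 to 0.359 points over those fits, the log2 ratio of RMER to other ERVK from 0.48 to 0.52, and male-against-female calls from 0 to 20. The ratio of bases in OCRs, 2.22 against other ERVK, was 1.60 where the share of copies with 50% or more of their length in OCRs was compared and 1.07 against all other LTR copies. The r of the RMER share of retrotransposon counts with the OCR share was 0.0144 outside OCRs and 0.564 without KO M2 and WT M1. DESeq2, which was not run without KO F2, called 3 copies and 36 OCRs. The cause of these changes was not tested.

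Among named features, folds near 0 changed sign. With factors from OCRs alone RMER6A moved to 0.0042, RMER16B to 0.039, RMER6C to 0.053, RMER19B to 0.054 and the RMER6A copy of highest CPM to 0.017. In copies outside OCRs RMER6A moved to 0.011, RMER6C to 0.027 and RMER19B to 0.021. RMER19C moved to -0.027 with factors from retrotransposon subfamilies alone, -0.033 in DESeq2 and -0.013 in limma voom. Without single libraries RMER16B ran from -0.098 to 0.028, RMER6C from -0.086 to 0.030 and RMER19C from -0.015 to 0.047. The RMER6A copy ran from -0.097 to 0.066, the RMER19B copy on chromosome 16 from -0.017 to 0.28, the RMER17C-int copy from -0.20 to 0.13 and the RMER17B2 OCR on chromosome 13 from -0.31 to 0.033.

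The replicate numbers were not shown to pair the libraries. Deviations of same-numbered libraries correlated at 0.752 (female labels) and -0.495 (male labels) over OCRs, and at 0.561 and 0.348 over retrotransposon subfamilies, so the male pairs differed in sign between the 2 kinds of feature. With the replicate block the share difference of -0.0230 points had an exact sign-flip p of 0.25, that of the share in OCR copies (-1.37 points) 0.875, and 0 subfamilies, 0 copies and 0 OCRs were called. With the male numbers crossed, chosen after seeing the data, 0 subfamilies, 0 copies and 161 OCRs were called.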
